A study of Mus musculus with 4 samples.

Results

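Cytosolic ribosomal protein genes were taken by symbol: names that begin with Rpl or Rps followed by a digit, together with Rplp0, Rplp1, Rplp2 and Rpsa, without pseudogene symbols (those with -ps) and without the S6 kinases (Rps6k). The rule gave 91 of the 18894 genes named in the 2 RNA libraries, 37 with a small subunit symbol and 54 with a large subunit symbol. All 91 were listed for tumor and 85 for blood. The symbol rule also takes in paralogs, retrotransposed copies and Rps19bp1, which encodes a protein that binds RPS19 and is not part of the ribosome. The cells were neutrophils of 3 mice of the inbred strain FVB. Each mouse bore a tumor from an injection of Py7160, a mammary tumor line, and no mouse was treated. Tumors of about 1 cm were taken 2 to 3 weeks after injection and dissociated with enzymes, and blood of the same mice went through red-cell lysis. Both were enriched on Ly6G to about 90% and sorted on CD11b and Ly6G to more than 99% purity. Cells of each mouse were marked with a hashtag antibody, and all 3 mice of one tissue went into 1 Drop-seq library, a droplet method that counts captured messenger RNA 3′ ends by unique molecular identifiers (UMIs). Tissue, library and dissociation therefore cannot be told apart, and p-values measure only the spread between mice within a library.

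Each ribosome is built from a small subunit, which reads the messenger RNA, and a large subunit, which joins amino acids. Their proteins are needed in near equal numbers, and their messenger RNAs are among the most abundant in dividing and growing cells. Many of these messenger RNAs start with an uninterrupted run of pyrimidines, the 5′ terminal oligopyrimidine motif, through which mTOR signalling sets how strongly they are translated. Neutrophils make their secondary granule proteins in the bone marrow, at the myelocyte stage, and mature cells hold little RNA.

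At the annotated start sites, some of the most abundant members had a pyrimidine run and others did not. Each line gives 15 bases before and 15 bases from the start site in the RefSeq table for build GRCm38.p6, 5′ to 3′ on the gene's strand, with a pyrimidine run of at least 8 bases that lies within 10 bases of the start in capitals. Rps9, Rplp2, Rps26, Rps10 and the first of the 2 starts of Rps24 hold such a run. Rps3, Rpl26 and Rpl41 do not, nor do the second start of Rps24 and both starts of Rps21, which are not printed.
Rps9, chr7:3704026-3704055, plus strand: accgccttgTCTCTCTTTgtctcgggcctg
Rplp2, chr7:141447636-141447665, plus strand: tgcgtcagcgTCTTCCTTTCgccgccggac
Rps26, chr10:128626492-128626521, minus strand: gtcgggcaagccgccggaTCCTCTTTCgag
Rps24, chr14:24490663-24490692, plus strand: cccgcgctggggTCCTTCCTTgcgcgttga
Rps10, chr17:27635230-27635259, minus strand: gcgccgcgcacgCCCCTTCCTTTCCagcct
Rps3, chr7:99483695-99483724, minus strand: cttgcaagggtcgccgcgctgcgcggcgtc
Rpl26, chr11:68901551-68901580, plus strand: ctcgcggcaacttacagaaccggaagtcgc
Rpl41, chr10:128549154-128549183, minus strand: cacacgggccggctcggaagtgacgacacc
The table held 68 of the 91 genes with 80 start sites, and 31 of these sites (38.8%) had the run, against 13.7% of the 32851 start sites in the whole table. Only runs of C and T on the gene's strand were searched. For each gene printed above, the gene start in the GENCODE M21 annotation lies more than 10 bases from the RefSeq start. The lack of a run therefore holds for the RefSeq start only and does not show that the messenger RNA lacks the motif.

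Cells were barcodes with at least 200 detected genes, at most 15% mitochondrial UMIs and at least 70% of hashtag counts from 1 hashtag. They numbered 106, 564 and 171 in tumor mice 1, 2 and 3 and 511, 456 and 408 in blood mice 1, 2 and 3, with 70612 to 436713 UMIs per mouse. No assigned barcode occurred in both libraries. Tumor mouse 2 stood apart: its hashtag made up 68.9% of hashtag counts in tumor barcodes of 20 to 60 UMIs, and HTODemux, another assignment, gave 230 of its 564 cells no hashtag. The neutrophil marker list summed to 76971 to 92874 CPM (counts scaled to the same total of UMIs per sum, not divided by gene length because UMIs mark 3′ ends) in tumor and 186402 to 212157 in blood, with all 10 genes detected in both. The macrophage and monocyte list summed to 1048 to 5390 CPM in tumor and 698 to 845 in blood, where C1qa, C1qb, C1qc, Mrc1 and Ms4a7 were among the 6 genes at 0. The T and NK cell list summed to 8.56 to 38.9 CPM in tumor, with Cd3e, Cd3g, Trac, Trbc1, Cd4, Cd8a, Nkg7 and Klrb1c at 0, and to 112 to 387 CPM in blood, with none at 0. The erythroid list was at 0 in tumor, with all 6 genes at 0, and summed to 13960 to 22162 CPM in blood; it was not used to leave out cells. Cells holding UMIs of at least 2 genes of one list of another cell type numbered 106 in tumor and 65 in blood, and results are given with and without them. Neutrophil markers made up 9.40% of UMIs in the 105 tumor cells with macrophage or monocyte markers and 8.87% in all tumor cells. In blood they made up 23.7% in the 48 such cells, 0.629% in the 15 with T or NK markers and 20.4% in all cells. Leaving these cells out therefore also takes out cells rich in neutrophil markers.

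Ribosomal protein transcripts made up about 1% of the UMIs of sorted neutrophils in either tissue. The share was 1.13%, 1.42% and 1.38% in tumor mice 1, 2 and 3 (1.31% ± 0.155, SD, n = 3) and 1.05%, 1.17% and 0.974% in blood mice 1, 2 and 3 (1.06% ± 0.0977, SD, n = 3). The lowest tumor mouse lay below the highest blood mouse, so the groups overlapped. A single gene, Rps9, a small subunit protein, supplied 14.0% ± 2.95 of these UMIs in tumor and 32.1% ± 4.45 in blood (SD, n = 3). Without Rps9, a step chosen after seeing the data, the share was 0.936%, 1.24% and 1.22% in tumor and 0.701%, 0.850% and 0.624% in blood, and the tissues no longer overlapped. In sums over cells, fewer cells of a type and less RNA per cell cannot be told apart.

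The share in blood rested in large part on few cells. The 15 blood cells with T or NK markers, with a median of 1146 UMIs, devoted 14.8% of their UMIs to ribosomal protein genes and held 18.3% of all such UMIs in blood, while making up 1.32% of the UMIs. In tumor, the 105 cells with macrophage or monocyte markers devoted 2.19% and held 29.8%, while making up 18.7% of the UMIs. Rps9 made up 3.62% of the ribosomal protein UMIs of the T or NK marker cells and 8.53% of those of the tumor macrophage marker cells. When all cells with markers of another type were left out, the share was 1.11%, 1.22% and 1.15% in tumor (1.16% ± 0.0574) and 0.842%, 0.847% and 0.871% in blood (0.853% ± 0.0153, SD, n = 3). The tissues then did not overlap. Without both those cells and Rps9, tumor stood at 0.980% ± 0.0712 and blood at 0.515% ± 0.0186 (SD, n = 3). Barcodes of 20 to 60 UMIs, which hold mainly free RNA, carried 0.501% in tumor and 0.347% in blood, below the cells of their library.

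**Figure D1:**
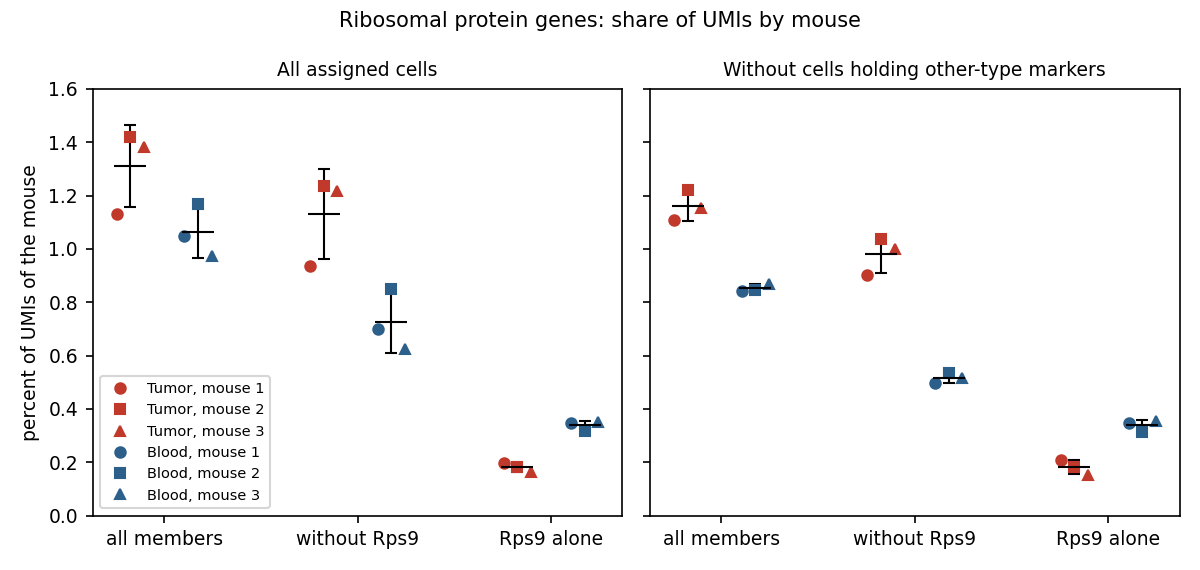
Percent of a mouse's UMIs from all ribosomal protein genes, from all but Rps9 and from Rps9 alone, in all assigned cells (left) and without cells holding markers of another cell type (right). Points are mice (3 per tissue), black lines means and bars SD. Rps9 alone is higher in blood, the other genes together are higher in tumor, and all members together overlap between tissues only on the left.

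The tissues differed more in the upper part of the cells than at the median. The median cell gave 0.997%, 0.894% and 0.846% of its UMIs to ribosomal protein genes in tumor mice 1, 2 and 3 and 0.823%, 0.795% and 0.850% in blood mice 1, 2 and 3, so the medians overlapped. The upper quartile stood at 1.54%, 1.70% and 1.62% in tumor and at 1.19%, 1.18% and 1.20% in blood, with no overlap. The median cell held 5 to 6 ribosomal protein UMIs in every mouse, so single cells place this share coarsely. Tumor cells with under 2% of their UMIs from neutrophil markers numbered 266. They held 45.9% of the ribosomal protein UMIs and 28.3% of all UMIs of the tumor. The 31 such cells in blood held 23.1% and 2.51%. In cells with at least 2% neutrophil marker UMIs, a set chosen after seeing the data, the share was 1.03%, 0.986% and 1.21% in tumor and 0.827%, 0.853% and 0.845% in blood. The part of other cell types in the remaining difference was not tested.

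Gene by gene, most measured ribosomal protein genes were higher in tumor neutrophils and 1 was lower. Of the 91 genes, 48 had enough UMIs to be tested with edgeR's quasi-likelihood test on the 6 sums. Of these 48, 31 rose in tumor and 1 fell at an adjusted p under 0.05, where 30.2% of all 3674 genes tested rose and 29.8% fell. The median log2 fold change was 0.79 for the 48 genes and −0.04 for all genes. Because 5 of the 48 (Rpl19, Rpl22l1, Rpl35, Rpl36al and Rps27rt) reached the level of the filter in all mice of the tumor only and 1 (Rps4x) in all mice of the blood only, the 38 that reached it in all 6 sums were counted separately. Among these 38, 26 rose and 1 fell, where 30.7% of the 1905 genes at that level rose and 29.0% fell. Every tumor mouse lay above every blood mouse for 25 of the 48 genes and below for 1, where 29.8% and 33.2% of all genes did so. Without cells holding markers of another type, 41 were tested, 35 rose and 1 fell (31.8% and 29.8% of all genes), with a median of 1.27, and the 29 of the 31 genes that could be tested again all rose. In cells with at least 2% neutrophil marker UMIs, 27 of 38 rose and 1 fell (28.1% and 26.6%). Without tumor mouse 2, 18 of 49 rose and 1 fell (22.5% and 22.9%), and all 18 are among the 31. With HTODemux 31 of 42 rose and 1 fell (32.3% and 31.2%), with DESeq2 21 of 48 rose and 1 fell (24.0% and 24.2%), without hemoglobin and mitochondrial genes 28 of 48 rose and 1 fell (28.9% and 32.1%), and with no filter on counts 16 of 89 rose and 1 fell (7.69% and 8.71%).

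**Figure D2:**
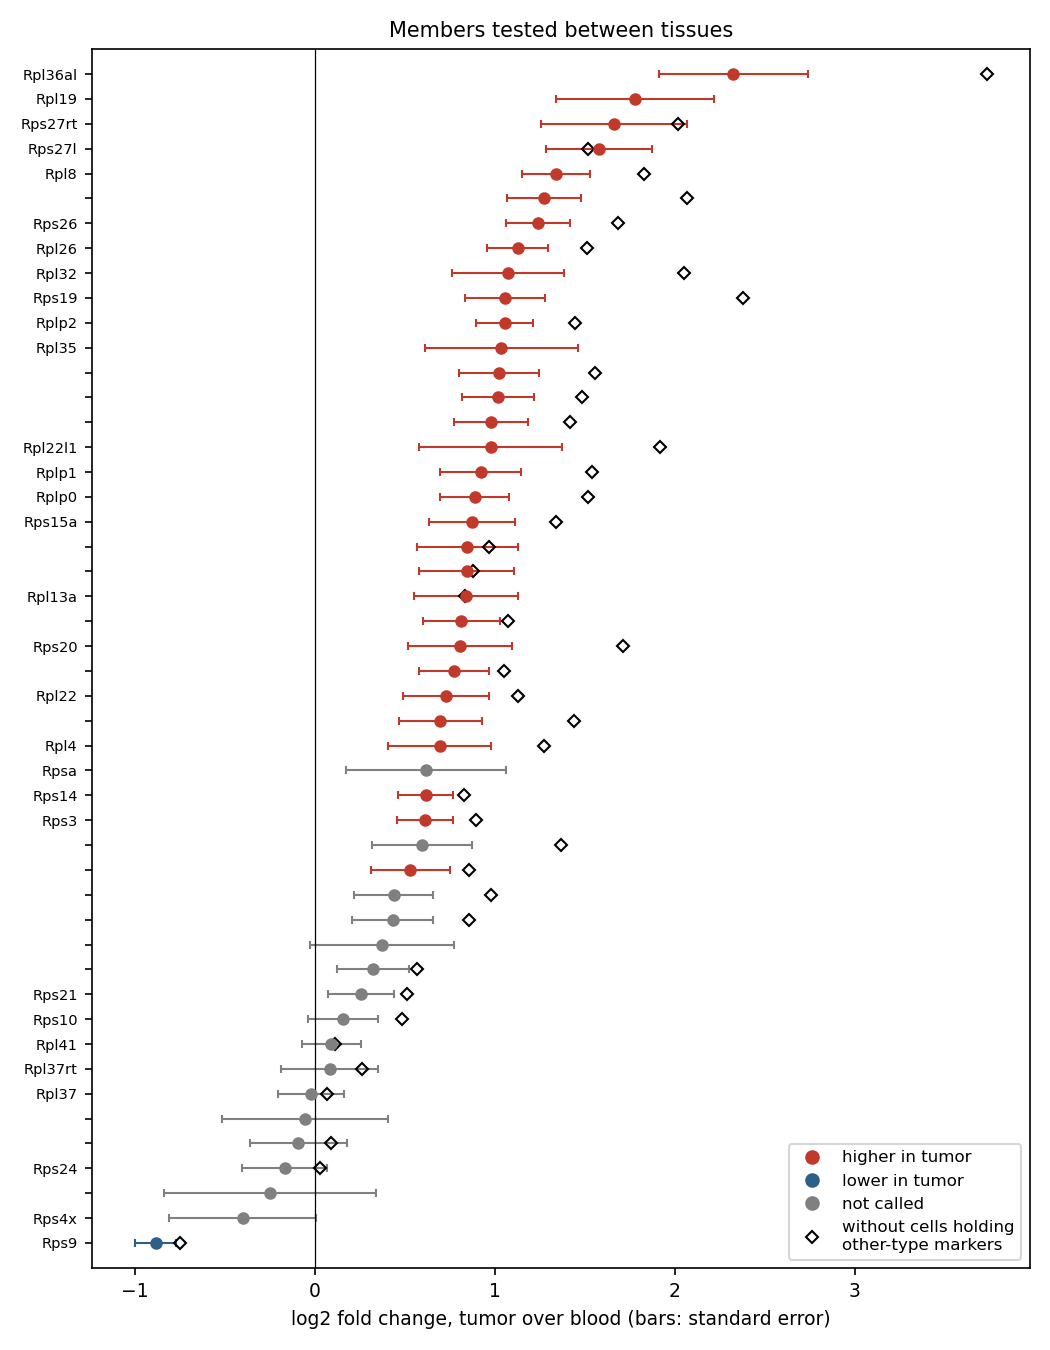
Log2 fold change of tumor over blood for the 48 ribosomal protein genes tested (points, with standard error bars, colored by call; genes named in the text are labelled) and the same value without cells holding markers of another cell type (diamonds, 41 genes). Rps9 alone is called lower, and most diamonds lie to the right of their points.

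Rps9 was the most abundant of these genes and the one that fell. It lies at chr7:3703993-3706897 on the plus strand, in the GENCODE M21 annotation of GRCm38, with no exon of another gene over it. Its level was 1969, 1824 and 1634 CPM in tumor mice 1, 2 and 3 and 3471, 3176 and 3497 CPM in blood mice 1, 2 and 3. All tumor mice lay below all blood mice. The log2 fold change was −0.88 (SE 0.12, edgeR adjusted p 5.1e-06). Over 21 alternatives it ranged from −1.17 to −0.54 and passed the threshold in each. It held 4911 UMIs, where Rps3, the next member by level, held 841.

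The other small subunit genes among the most abundant split into those that rose and those that did not pass. Rps3, which lines the messenger RNA entry and also acts in DNA repair, stood at 482, 659 and 659 CPM in tumor and 417, 445 and 378 CPM in blood, without overlap, a log2 fold change of 0.61 (SE 0.16, edgeR adjusted p 0.0027). Its call was lost without blood mouse 3 (edgeR adjusted p 0.068) and with no filter on counts (0.345). Rps26, at the messenger RNA exit, stood at 496, 573 and 642 CPM in tumor and 215, 313 and 221 CPM in blood. It rose by 1.24 on the log2 scale (SE 0.18, edgeR adjusted p 1.3e-05). Rps26 passed in all 21 alternatives. Rps14 rose by 0.62 (SE 0.15, edgeR adjusted p 0.0023), from 355 ± 32.0 CPM in blood to 516 ± 54.4 CPM in tumor (SD, n = 3), a call lost without blood mouse 1 and with no filter on counts.

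Rps24, Rps21 and Rps10 did not pass between tissues when all cells entered. Rps24 stood at 184, 309 and 291 CPM in tumor and 353, 397 and 212 CPM in blood, with overlap (log2 fold change −0.17, SE 0.23, edgeR adjusted p 0.56). Its direction turned with the cells entered: it was called lower without blood mouse 3 (−0.54) and called higher in cells with at least 2% neutrophil marker UMIs (0.60). Rps21 (309 ± 56.7 CPM in tumor and 267 ± 39.0 in blood) and Rps10 (279 ± 78.7 and 280 ± 27.2, SD, n = 3) also overlapped, with edgeR adjusted p of 0.24 and 0.50. Without cells holding markers of another type both passed: Rps21 rose by 0.51 (edgeR adjusted p 0.026) and Rps10 by 0.49 (edgeR adjusted p 0.033). An exon of Gm15420 on the opposite strand and an exon of RPS10-NUDT3 on the same strand lie over Rps10. The labels do not say how the counting treated strand or reads that match both genes.

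Among the large subunit genes, the acidic stalk proteins Rplp1 and Rplp2, which recruit elongation factors to the ribosome, were the most abundant. Rplp2 stood at 467, 599 and 685 CPM in tumor and 295, 297 and 285 CPM in blood, all tumor mice above all blood mice. It rose by 1.06 on the log2 scale (SE 0.16, edgeR adjusted p 2.2e-05). Rplp1 stood at 382, 566 and 419 CPM in tumor and 259, 347 and 173 CPM in blood and rose by 0.92 (SE 0.23, edgeR adjusted p 0.0020), a call it lost without tumor mouse 2 (adjusted p 0.063). Rplp0, the stalk base, rose by 0.89 (SE 0.19, edgeR adjusted p 7.2e-04). Rpl26, which binds near the peptide exit and is known as a regulator of p53 translation, stood at 453, 464 and 436 CPM in tumor and 224, 237 and 173 CPM in blood. It rose by 1.13 (SE 0.17, edgeR adjusted p 2.4e-05). Rpl8 stood at 382, 356 and 299 CPM in tumor and 126, 166 and 127 CPM in blood and rose by 1.34 (SE 0.19, edgeR adjusted p 1.1e-05). Rpl41, one of the smallest proteins of the ribosome, stood at 297, 285 and 317 CPM in tumor and 309, 266 and 279 CPM in blood, with overlap (log2 fold change 0.09, SE 0.16, edgeR adjusted p 0.65).

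**Figure D3:**
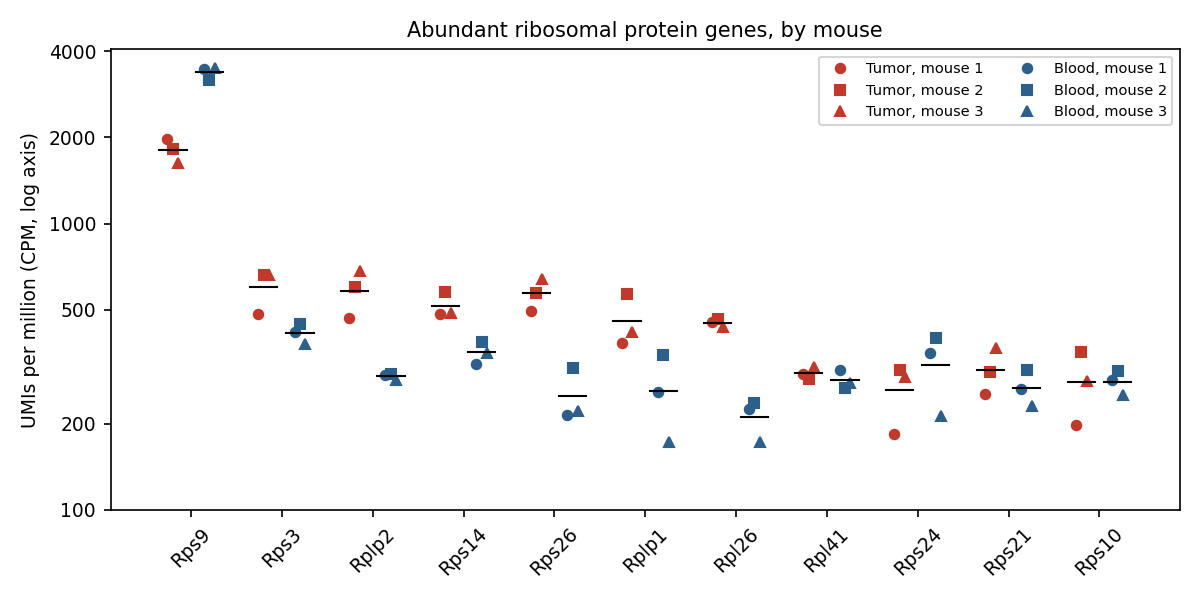
CPM of 11 of the most abundant ribosomal protein genes, by mouse (points, log axis), with the mean of each tissue as a line. Rps9 lies far above the others and is higher in blood, and Rpl41, Rps24, Rps21 and Rps10 overlap between tissues.

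Members of both subunits rose. Of 22 small subunit genes tested, 12 rose and 1 fell; their median log2 fold change was 0.62, against −0.04 for all genes. Of 26 large subunit genes 19 rose and none fell, a median of 0.84. Of all genes tested, 30.2% rose and 29.8% fell. These risers include Rpl19, Rpl22l1, Rpl35 and Rpl36al (large) and Rps27rt (small), which reached the level of the filter in all mice of the tumor only. The summed small to large subunit UMIs gave a ratio of 1.38, 1.21 and 1.19 in tumor and 1.90, 1.75 and 2.01 in blood, without overlap. Without Rps9 the ratio was 0.942 ± 0.0219 in tumor and 0.958 ± 0.0415 in blood (SD, n = 3), with overlap. Of 18 tested genes with the pyrimidine run at a RefSeq start 11 rose and 1 fell. Of 20 tested genes in the table without it there 11 rose and none fell, where 30.2% of all genes tested rose and 29.8% fell.

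Paralogs and copies were among the largest rises, at low levels. Rpl36al, Rps27rt, Rpl22l1 and Rpl19 reached the level of the filter in all mice of the tumor only. They could enter the test through the tissue where they are high, so their ranks and adjusted p add no separate support. Rpl36al, a retrotransposed relative of Rpl36a, stood at 56.6, 62.3 and 59.9 CPM in tumor and 16.0, 13.2 and 6.06 CPM in blood, from 35 and 14 UMIs. It rose by 2.32 on the log2 scale (SE 0.41, edgeR adjusted p 1.2e-04). Rps27rt, a retrotransposed copy of Rps27, rose by 1.66 (SE 0.40, edgeR adjusted p 0.0019) from 29 and 19 UMIs. Rps27l, a p53-induced paralog of Rps27, stood at 70.8, 130 and 128 CPM in tumor and 38.9, 44.7 and 39.4 CPM in blood and rose by 1.58 (SE 0.30, edgeR adjusted p 2.1e-04). Rpl22l1, the paralog of Rpl22, rose by 0.98 (SE 0.40, edgeR adjusted p 0.043), and passed in 6 of 20 alternatives only. Rpl37rt, a transcribed copy of Rpl37, did not pass (0.08, SE 0.27, edgeR adjusted p 0.84). Rpl7l1 (16 UMIs in tumor and 29 in blood), Rpl3l (9 and 26), Rps19bp1 (12 and 7), Rpl10l (3 and 0) and Rps4l (1 and 0) were too low to test. Rpl19, an ordinary large subunit gene, was also among the largest rises (1.78, SE 0.44, edgeR adjusted p 0.0022), from 22 and 13 UMIs. Transcript ends were compared with all other genes, as described below. The share of sequence words found in another gene was 88.4% for Rps27rt, 77.3% for Rpl22l1 and 67.4% for Rpl36al. It was 66.9% for Rpl19 and 13.3% for Rps27l. An exon of Gm49383 on the same strand lies over Rpl36al. Whether reads of other genes were counted for these genes was not tested.

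The list of members with roles outside the ribosome held Rps3, Rps19, Rpl13a, Rpl22, Rpsa, Rpl5, Rpl11 and Rps6. Of these Rps3, Rps19, Rpl13a and Rpl22 rose, Rpsa did not pass, and Rpl5, Rpl11 and Rps6 were too low to test. Rps19, the gene most often mutated in Diamond-Blackfan anemia, stood at 312, 402 and 317 CPM in tumor and 174, 232 and 121 CPM in blood and rose by 1.06 (SE 0.22, edgeR adjusted p 5.6e-04). Without cells holding markers of another type its rise was 2.38 (edgeR adjusted p 1.5e-08). Rpl13a, part of an interferon-linked translational control complex, rose by 0.84 (SE 0.29, edgeR adjusted p 0.018), and Rpl22, a regulator of lymphocyte development, by 0.73 (SE 0.24, edgeR adjusted p 0.015), though tumor mouse 1 lay below the blood mice for Rpl22. Those 2 calls were lost in 8 and 7 of 21 alternatives. Rpsa, also a laminin receptor, did not pass (0.62, SE 0.45, edgeR adjusted p 0.25), and its direction turned without tumor mouse 2. Rpl5 (4 UMIs in tumor and 2 in blood) and Rpl11 (10 and 18), which bind MDM2, were too low to test, and Rps6, the S6 kinase substrate, had 0 UMIs in the assigned cells of both tissues.

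Levels differed widely between members. The 43 genes not tested had at most 45 UMIs each, with a median of 7, while the tested genes held 97.1% of all ribosomal protein UMIs. Proteins of one ribosome are needed in near equal numbers, yet Rps9 had 4911 UMIs and Rps6 had 0. Copies of these genes are common in the genome, and a counter can drop or split a read that matches several genes; the settings used are not given in the labels. The last 300 bases of each coding transcript in GENCODE M21 were therefore compared with all other genes. The median share of words of 50 bases found in another gene was 40.5% for the 47 tested genes with a transcript and 59.7% for the 38 not tested. Of 19 genes that shared at least 75%, 7 were tested, and of 22 that shared under 25%, 15 were tested. Spearman's rho between UMIs and the shared percent was −0.31 over 85 genes of the same libraries. Rps9 shared 13.8%, Rps6 83.3%, and Rpl5 and Rpl36a 100%. Rpl12, with 14 UMIs, shared nothing. The part of shared sequence in these levels was not tested.

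**Figure D4:**
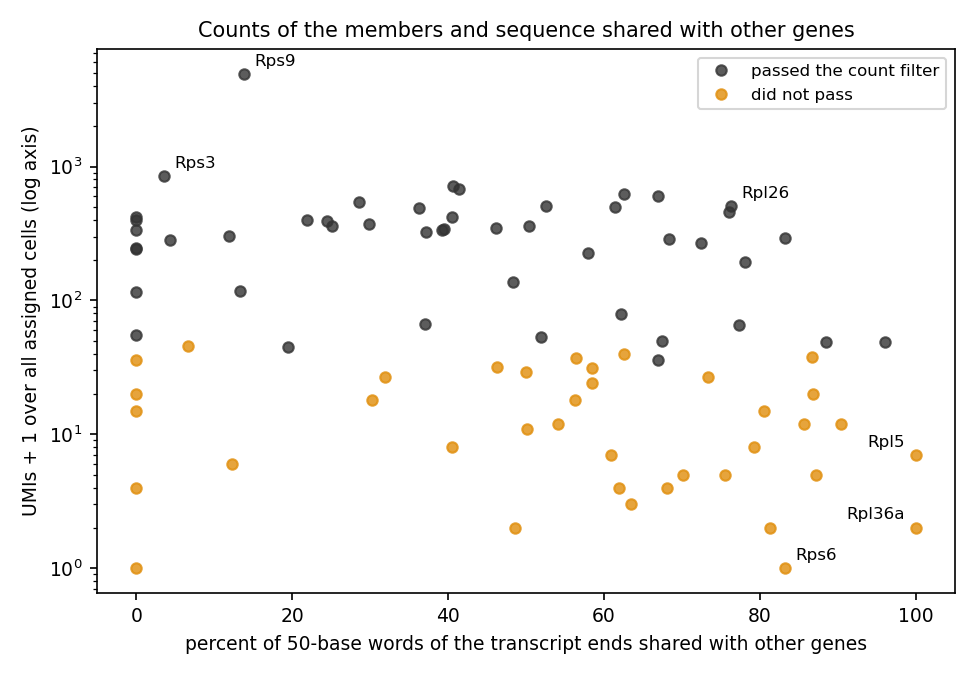
UMIs of 85 ribosomal protein genes over all assigned cells (plus 1, log axis) against the percent of 50-base words of their transcript ends that occur in another gene. Genes that passed the count filter are dark, the others orange, and the low genes are more often, but not always, those with much shared sequence.

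Secondary granule genes (Camp, Ngp, Ltf, Lcn2, Chil3, Cd177, Mmp8 and Olfm4) are transcribed in immature neutrophils, and ribosomal protein levels were followed along them within each mouse. The ribosomal protein share is given over UMIs outside the granule list. In blood mice 1, 2 and 3 it was 1.20%, 1.29% and 1.05% in cells with under 0.5% granule UMIs and 0.639%, 0.658% and 0.770% in cells with 0.5% to 2%, lower in each mouse. Blood cells with 5% or more granule UMIs (16, 13 and 6 cells) stood at 0.778%, 1.06% and 0.620% as sums, with a median cell at 0.790%, 0.643% and 0.659%. Across the cells of a mouse, Spearman's rho between the 2 shares was −0.17, −0.18 and −0.21 in blood mice 1, 2 and 3 (511, 456 and 408 cells) and −0.086, −0.24 and −0.11 in tumor mice 1, 2 and 3 (106, 564 and 171 cells). Cells of a mouse share a library, and no granule UMI was found in 585 of the 841 cells from tumor or in 732 of the 1375 from blood.

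Both ends of the granule scale held cells with markers of another type: 18 of 445, 21 of 401 and 12 of 368 cells with under 0.5% granule UMIs and 2 of 26, 3 of 26 and 0 of 11 with at least 2% in blood mice 1, 2 and 3. In tumor mouse 2 they were 68 of 517 and 7 of 12. Without cells holding markers of another type, blood cells with under 0.5% granule UMIs stood at 0.914%, 0.865% and 0.937%, and those with 0.5% to 2% at 0.618%, 0.651% and 0.644%. Both Rps9 and the other members were lower in the second of these bins. Rps9 made up 0.389%, 0.347% and 0.384% of UMIs in the lowest bin and 0.247%, 0.252% and 0.288% in cells with 0.5% to 2%. The other members together were at 0.525%, 0.518% and 0.553% and then at 0.371%, 0.399% and 0.356%. In cells with 5% or more, Rps9 stood at 0.186%, 0.153% and 0.204%. The other members stood there at 0.581%, 0.909% and 0.415%, and against the lowest bin the sums of the mice differed in direction. Granule-rich cells were also deeper, with a median of 1494 to 2209 UMIs for cells with at least 2% in blood and 621 to 631 for cells with under 0.5%. The part of depth in these differences was not tested, and the same bins in those cells with at least 1000 UMIs gave 0.771%, 0.759% and 0.750% in the lowest bin and 0.606%, 0.609% and 0.626% in cells with 0.5% to 2%.

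**Figure D5:**
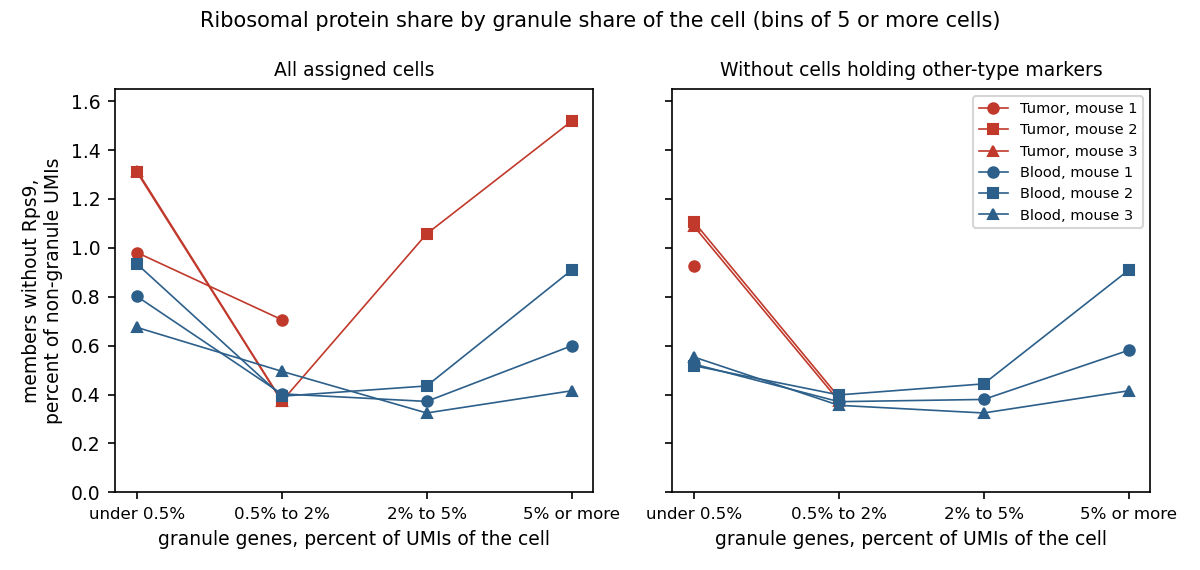
Ribosomal protein genes other than Rps9, as percent of UMIs outside the granule list, by the granule share of the cell, for each mouse (lines) in all cells (left) and without cells holding markers of another cell type (right); bins with fewer than 5 cells are left out. The lowest point of most lines is in the middle bins, and the highest bin differs between mice.

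Granule-rich cells (at least 2%) were then compared with granule-low cells (under 0.5%) over 8 sums, 2 per mouse and tissue, from tumor mouse 2 and the 3 blood mice. Tumor and blood came from the same animals, so tumor mouse 2 is also one of those that gave blood. The rich class held 12 cells in tumor mouse 2 and 26, 26 and 11 in blood mice 1, 2 and 3. Of the 12 in tumor, 9 had no hashtag by HTODemux. In edgeR's quasi-likelihood test the block was the mouse within its tissue. None of 36 ribosomal protein genes tested rose and 1 fell, where 11.7% and 14.0% of all 1857 genes did. At an unadjusted p under 0.05, none rose and 3 fell (285 and 399 of all 1857 genes), and DESeq2 called none in either direction (9.91% and 9.96% of all genes). Without blood mouse 1, and likewise without blood mouse 2, none fell. The median log2 fold change was −0.19 for the 36 genes and −0.23 for all genes. No difference between tissues in the class effect was called for the 36 genes in edgeR's interaction test, which rests on 1 tumor mouse (0 called, against 0.539% larger and 0.862% smaller of all genes; at an unadjusted p under 0.05, 2 of the 36 and 100 of all 1857 were larger in tumor, and 0 and 154 smaller).

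Leaving out cells with markers of another type changed which genes were called between granule classes. In the 3 blood mice that remained, 4 of 34 genes rose and 1 fell, both below the 15.4% and 14.7% of all genes. The median log2 fold change was 0.34, the opposite sign, against −0.09 for all genes. The risers were Rpl4 (2.16, SE 0.46, edgeR adjusted p 0.0030), a large subunit protein of the exit tunnel, Rps24 (1.69, SE 0.35, edgeR adjusted p 0.0025), Rps20 (2.03, SE 0.55, edgeR adjusted p 0.013) and Rps15a (1.30, SE 0.45, edgeR adjusted p 0.043), each higher in rich cells in 3 of 3 mice. Rps9 fell (−0.51, SE 0.14, edgeR adjusted p 0.012): it stood at 2096, 1935 and 2057 CPM in rich cells and at 3890, 3471 and 3836 CPM in low cells of blood mice 1, 2 and 3. In cells with at least 2% neutrophil marker UMIs, a set chosen after seeing the data, 6 of 34 rose (the same 4 with Rpl32 and Rps19) and Rps9 fell, where 13.1% and 16.3% of all genes did. Neutrophil markers summed to 317657 CPM in rich and 172385 CPM in low cells of blood, and to 303401 and 68658 CPM in tumor.

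The wider translation machinery was read from lists between tissues, where 30.2% of all genes tested rose and 29.8% fell. Among other ribosome components, Fau, a small subunit protein made as a ubiquitin-like fusion, rose by 0.99 (edgeR adjusted p 0.0013), and Rack1 did not pass. Of 9 genes tested from the elongation list 5 rose and none fell. The largest rises were Eef1a1, which brings aminoacyl-tRNA to the ribosome (601 ± 119 CPM in tumor, 168 ± 31.6 in blood), and Tpt1 (112 ± 14.9 and 33.7 ± 5.01, SD, n = 3). Eef2, Naca and Btf3 also rose, while Eef1d, Eef1b2, Eef1g and Eif5a did not pass. Of the genes named Eef, only Eef1a1 and Eef2 rose, so the count is not one of elongation factors alone. Of 25 initiation genes 13 rose and 2 fell. Eif4a1, the helicase of the cap complex, stood at 326 ± 24.2 CPM in tumor and 19.3 ± 1.63 in blood, and Eif4e, the cap-binding protein, at 66.1 ± 5.59 and 5.05 ± 1.93. The 2 that fell were the eIF4E inhibitors Eif4ebp1 (105 ± 26.7 and 314 ± 41.9) and Eif4ebp2 (49.2 ± 15.8 and 92.3 ± 19.8, SD, n = 3). Of 13 ribosome biogenesis genes 11 rose and 1 fell: the nucleolar GTPase Gnl3 stood at 176 ± 61.5 CPM in tumor and 4.42 ± 1.72 in blood and Nop58, of the box C/D particle, at 76.8 ± 39.1 and 4.92 ± 4.29, while Ubtf, the RNA polymerase I factor, was at 54.4 ± 20.3 and 114 ± 18.5. The files held 32 initiation and 34 biogenesis genes. Among the risers, blood means lay below the filter level of 28.2 CPM for Gnl3, Nop58, Nop56, Nolc1, Nop10 and Eif6. The same held for Eif4a1, Eif4e, Eif3g and Eif3d. Such genes pass the filter mainly through tumor, where they are high, so their calls add no separate support. The tumor mean of Eif1ax, not called, also lay below that level. Of 3 mTOR and Myc pathway genes tested, Rps6kb1 (59.9 ± 28.3 and 37.5 ± 11.3) and Rheb (132 ± 42.2 and 87.1 ± 14.8, SD, n = 3) rose. Without cells holding markers of another type, 31.8% of all genes rose and 29.8% fell. There the counts higher were 5 of 8 on the elongation list, 12 of 21 initiation genes (2 fell) and 9 of 11 biogenesis genes (Ubtf no longer passed).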

How the data were processed

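The authors deposited unnormalized UMI counts (genes by barcodes) and hashtag counts for each of the 2 tissues. STAR and mm10 are named without versions, per the submitters' processing notes. The sources used here do not name the gene counter, its annotation or its use of strand. The ribosomal protein genes and the gene lists were chosen with earlier results of these data known. UMIs were summed per mouse and tissue (6 sums) and, for granule classes, per mouse, tissue and class with at least 10 cells in both classes (8 sums, without the 8 granule genes). Sums were tested with edgeR 4.0.16 in R 4.3.3 (filterByExpr, TMM, glmQLFit and glmQLFTest, adjusted after Benjamini and Hochberg over all genes tested, threshold 0.05), after a check on simulated data. Standard errors were derived from the F statistic. Tissue was the only term, and classes had the mouse within its tissue as block. DESeq2 1.42.0 and HTODemux of Seurat 5.3.0 were alternatives, with others on cells, filters, scaling and replicates. The labels do not say that a hashtag number marks the same mouse in both tissues, so no pairing was taken. Correlations of deviations of same-numbered mice were 0.022, 0.011 and −0.024, which cannot decide on pairing. Doublets were limited only by the rule of 70% of hashtag counts, and HTODemux called 85 tumor and 80 blood assigned cells doublets. Genes named are the 12 highest, the 8 largest called changes each way between tissues (6 between classes), paralogs, members with other roles, and the 2 largest called genes each way of each further list. Rplp0, Rpl36a and Rpl12, and genes named as exceptions or behind small counts, were chosen after their values were seen. Some genes that meet this rule are not reported here. Of 18894 gene names 18458 occur in GENCODE M21. Tissue depth was 572844 UMIs in tumor and 1147068 in blood.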

Additional observations from a re-analysis of the deposited data

Results flagged for a closer look

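Ribosomal protein pseudogene symbols, which the comparisons leave out, held 456 UMIs in assigned tumor cells and 732 in assigned blood cells. Of 178 such symbols 7 could be tested between tissues, and of these Rpl14-ps1 (0.99) and Rpl9-ps6 (0.79) rose and Rps24-ps3 fell (log2 fold change −1.03, SE 0.29, edgeR adjusted p 0.0052, from 28 UMIs in tumor and 120 in blood). These counts, 2 and 1 of 7, stand beside 30.2% and 29.8% of all genes tested. Reads of a gene and its pseudogene may be exchanged by the counter, which was not tested.

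Cells assigned to no mouse, 106 in tumor and 159 in blood, entered no comparison. Ribosomal protein genes made up 1.49% of their UMIs in tumor and 0.860% in blood, and Rps9 made up 9.74% and 41.1% of those ribosomal protein UMIs.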

How the results depend on the processing

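Rps9 was lower in tumor in all 21 alternatives, and the count of ribosomal protein genes higher in tumor was 16 with no filter on counts and 18 (without tumor mouse 2) to 30 when 1 mouse was left out. Of all genes, 7.69% rose with no filter and 22.5% without tumor mouse 2. With the hashtag number as block, 23 genes rose and 1 fell, but the labels do not tie the numbers to mice across tissues. Counts here with no share of all genes beside them are not read as results about the members. Correlations of the samples' deviations between differently numbered mice were −0.053 to 0.053. With 3 mice these correlations cannot show whether pairing is present. The median log2 fold change was 1.27 without cells holding markers of another type and 0.55 to 0.86 with 1 mouse left out. The count lower was 1 to 2 with 1 mouse left out (Rps24 joins without blood mouse 3) and 2 with pseudogenes added. The difference in share, 0.248 percentage points, was 0.385 with at least 300 genes per cell and 0.405 without Rps9, and the difference in subunit ratio, −0.627, was −0.016 without Rps9. The median rho per mouse, −0.18, was −0.089 with Camp, Ngp and Ltf alone and −0.25 with at least 300 genes.

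Between granule classes, the count lower was 3 with no TMM, 6 with no filter, 0 with DESeq2, 3 with the rich class from 1%, 0 with Camp, Ngp and Ltf alone, 3 with at least 300 genes and 0 to 1 with 1 mouse left out. The count higher was 1 with the rich class from 4%, 1 with HTODemux, 1 in blood alone, 4 without cells holding markers of another type, 6 in cells with neutrophil markers and 0 to 1 with 1 mouse left out. Of all genes, 299 of 1920 were higher and 262 lower with HTODemux. The shares were 15.4% and 14.7% without other-marker cells and 13.1% and 16.3% in neutrophil marker cells. Counts under settings with no share of all genes beside them are not read as results about the members. The median was −1.08 with no filter and turned to 0.0064, 0.34 and 0.30 with the rich class from 4%, without cells holding other markers and in cells with neutrophil markers.

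Some genes that did not pass turned direction. Rpl37rt was at −0.047 (upper quartile), −0.15 (no filter), −0.32 (at least 300 genes), −0.018 (neutrophil marker cells) and −0.18 to 0.30 with 1 mouse left out. Rpl41 was at −0.034, −0.17 and −0.12 in the first 3 of these and −0.084 to 0.14 with 1 mouse left out. With no filter Rps10 was at −0.12, Rps21 at −0.014 and Rps24 between classes at −0.0095. With 1 mouse left out Rps10 ranged from −0.15 to 0.30 and Rpsa from −0.97 to 0.87. Without other-marker cells Rps10 (0.49) and Rps21 (0.51) passed. Rps24 was at 0.20 with at most 10% mitochondrial UMIs, 0.028 without other-marker cells and 0.60 in neutrophil marker cells, where it passed. The causes were not tested. The settings without Rps9 and with neutrophil marker cells were chosen after seeing the data. Granule classes in tumor alone could not be fitted, since 1 mouse remained, nor could the interaction with HTODemux or without tumor mouse 2. The scaling moved the median of all genes from −0.04 to −0.17 (upper quartile) and −0.12 (DESeq2). The 43 genes not tested had too few counts for the filter.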
